A study of Homo sapiens with 15 samples.

Results

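The genes described here are 49 genes of DNA replication and S phase. They were grouped by role into origin licensing, origin firing, DNA synthesis, clamp loading, Okazaki fragment processing, nucleotide supply, chromatin inheritance and fork protection. All 49 were chosen by name from knowledge of the pathway, but with earlier results of these data known. The counts of called members are therefore not independent of this choice. Each was measured by 1 of the 21448 transcript clusters of the array, each of which gathers the probes of a gene. Of these, 17709 carry 1 gene symbol. RNA came from MG-63 cells, a human osteosarcoma line with osteoblast features, that had been seeded on titanium chips in medium with serum. On Ti-TMS-PEI the titanium carried a layer of trimethoxysilylpropyl-modified poly(ethyleneimine), an amine-rich polymer, and Ti-Ref was the same titanium without a coating. The arrays comprised 4 of Ti-TMS-PEI and 4 of Ti-Ref at 4 h, and 4 of Ti-TMS-PEI (A to D) and 3 of Ti-Ref (A to C) at 24 h. Only cells adhering to the chip were lysed, all cells were of a single tumour line, and no gene was edited, so the surface is the only stated difference between the groups of a time. The methods speak of independent experiments and also of technical replicate groups, so the p-values measure the spread between these arrays, which may be partly technical.

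Before a cell copies its DNA, ORC, CDC6 and CDT1 load the MCM helicase onto origins in G1 phase (licensing), and geminin (GMNN) blocks a new round of loading. The kinase CDC7 with its activator DBF4 then converts the loaded helicase, together with CDC45 and the GINS complex, into an active one (firing). Polymerase alpha with primase starts each strand, polymerases epsilon and delta extend it on the PCNA clamp, and FEN1 and LIG1 join the fragments of the lagging strand. Transcription of many of these genes is set by E2F factors and peaks towards the G1/S transition, so their RNA is widely used as a readout of cells entering S phase. In RNA from a whole culture, fewer cells in S phase and less of this RNA in each cell cannot be told apart.

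The promoters of such genes often hold E2F sites, so the RefSeq windows (build GRCh38.p14) from 250 bases before to 50 bases after each start were searched on both strands for the words TTTCCCGC, TTTCGCGC, TTTGCCGC and TTTGGCGC. Words on opposite strands can share bases. A window was held for 44 of the 49 members. At least 1 of these words was present in 26 of their 61 windows (42.6%), against 3.31% of all 35116 windows. Some genes have several windows. By gene, 25 of the 44 members (56.8%) had a match, against 3.99% of all genes with a window. The stretches printed here show the 150 bases upstream of the start, 5′ to 3′ on the sense strand, for 1 member in each of 5 roles (chromatin inheritance, nick sealing, nucleotide supply, DNA synthesis and origin firing). Each is, in its role, the member with the smallest p at 24 h that has a match in this stretch before its most upstream start, and these 5 had the smallest p over the roles. Capitals mark the E2F words, read on either strand.
HELLS, chr10:94545638-94545787, plus strand: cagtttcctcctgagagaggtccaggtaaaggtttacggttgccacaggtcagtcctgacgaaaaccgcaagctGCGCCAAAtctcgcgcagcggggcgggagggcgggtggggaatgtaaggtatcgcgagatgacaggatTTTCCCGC
LIG1, chr19:48170345-48170494, minus strand: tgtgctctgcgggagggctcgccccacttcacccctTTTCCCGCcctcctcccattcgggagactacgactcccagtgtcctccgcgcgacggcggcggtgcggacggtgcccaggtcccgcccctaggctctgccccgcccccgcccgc
TYMS, chr18:657503-657652, plus strand: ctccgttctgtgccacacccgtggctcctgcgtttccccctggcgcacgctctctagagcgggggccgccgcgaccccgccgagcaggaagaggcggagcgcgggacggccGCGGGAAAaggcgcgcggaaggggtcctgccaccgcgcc
POLA1, chrX:24693768-24693917, plus strand: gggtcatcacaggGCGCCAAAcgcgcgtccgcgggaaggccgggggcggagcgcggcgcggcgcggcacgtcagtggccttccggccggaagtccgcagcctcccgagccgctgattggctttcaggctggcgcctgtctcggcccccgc
GINS2, chr16:85688955-85689104, minus strand: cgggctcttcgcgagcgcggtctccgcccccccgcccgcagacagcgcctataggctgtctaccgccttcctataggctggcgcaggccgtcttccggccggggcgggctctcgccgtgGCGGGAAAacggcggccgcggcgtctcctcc
HELLS held 2 words in this stretch, the second ending directly before the start, while the single word of GINS2 ended 23 bases and that of TYMS 31 bases before the start. The words of LIG1 and POLA1 lay farther upstream, at 106 and 129 bases. All 5 genes were called lower on Ti-TMS-PEI at 24 h. They were chosen by their small p at 24 h, so these calls say nothing about the words. Of the 25 members with an E2F word, 16 were called lower at 24 h, with a median log2 fold change of -0.64, and of the 19 members with a window but no such word 9 were called lower, with a median of -0.60. Over all transcript clusters 2.69% were called lower by the rule given below, and the median was -0.0033. Whether the share called differs between members with and without the word was not tested. A match describes these letters only and shows no binding.

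The deposited values are log2 signals. The median of an array lay between 5.79 and 5.86 at 4 h and between 6.71 and 6.79 at 24 h. From these medians the times were taken as normalized separately, which the methods do not state. Signals were therefore compared only within a time. Signals of dim transcripts are compressed on arrays, and 46 of the 49 members lay above the median of the array on all 15 arrays (24 above the upper quartile). MCM10, POLD1 and POLE2 did not. Among the markers of cell identity, 4 of 9 osteoblast and mesenchymal genes lay above the upper quartile on all arrays and 4 below the median, and 0 of the 9 were called by limma at either time (0 at an unadjusted p under 0.05 also). Of the markers of other cells, 6 of 9 for blood, 5 of 8 for epithelium and 6 of 7 for endothelium lay below the median on all arrays. At 24 h, CD68 (1.22), KRT18 (0.66), KRT19 (0.75) and CDH5 (0.77) of these lists were called higher on Ti-TMS-PEI, with the log2 fold change in parentheses, and their part in the results was not tested.

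At 24 h, all 49 members had a lower mean on Ti-TMS-PEI than on Ti-Ref, where 50.5% of all transcript clusters did. A gene was called at a fold change over 1.5 with a p and a Benjamini-Hochberg adjusted p under 0.05 in limma, fitted over all transcript clusters of the time. By this rule 27 of the 49 members were called lower (577 of all transcript clusters, 2.69%), and 0 were called higher (742 of all, 3.46%), since no member had a higher mean. Of the 22 others, CDC6, GMNN and POLD1 passed the adjusted p with a fold change under 1.5. The median log2 fold change of the members was -0.63 (1.54-fold lower), against -0.0033 over all transcript clusters, and single members ranged from -1.24 for DBF4 to -0.18 for MCM4. Every Ti-TMS-PEI array lay below every Ti-Ref array for 46 members, which held for 11.6% of all transcript clusters, and the arrays overlapped for MCM4, POLA2 and POLD3. The count of 27 depended on single arrays: it was 5 without Ti-Ref A, 10 without Ti-Ref B, 11 without Ti-Ref C and 10 without Ti-TMS-PEI B, but all 49 means stayed lower in each of these fits. Over all transcript clusters, the 577 calls lower became 305, 387, 436 and 367 in the same fits.

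**Figure D1:**
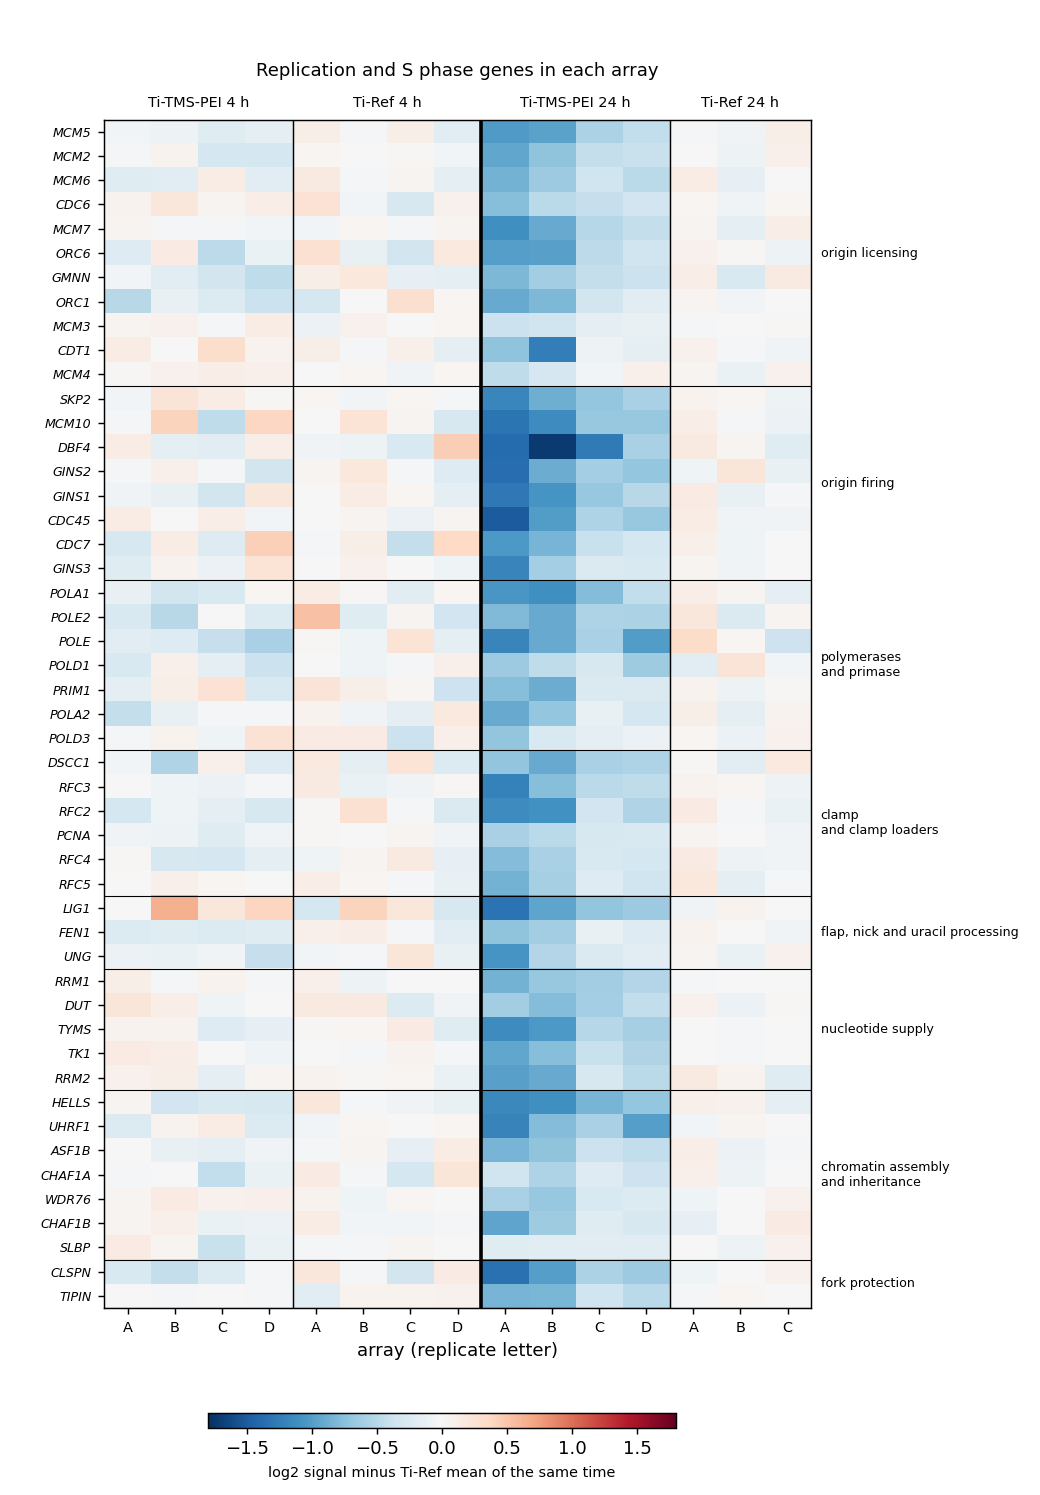
Log2 signal of each member (a line per gene, grouped by role and ordered by p at 24 h) in each of the 15 arrays, as the difference from the Ti-Ref mean of the same time, with blue below and red above it. The Ti-TMS-PEI arrays of 24 h are blue for nearly all 49 members and deeper blue in A and B than in C and D, while the arrays of 4 h are mixed.

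Of the 11 licensing genes, 5 were called lower at 24 h, and the median log2 fold change over all 11 was -0.56. MCM5, a subunit of the MCM2 to MCM7 helicase, had log2 signals of 12.64, 12.70, 13.09 and 13.22 on Ti-TMS-PEI and 13.62, 13.59 and 13.76 on Ti-Ref. All Ti-TMS-PEI arrays lay below the Ti-Ref arrays. MCM5 averaged 12.91 ± 0.29 on Ti-TMS-PEI (SD, n = 4) and 13.66 ± 0.09 on Ti-Ref (SD, n = 3), with a fold change of -0.74 on the log2 scale (SE 0.16, 1.68-fold lower, limma adjusted p = 0.0200). MCM2, another subunit of the same ring, had 10.01, 10.22, 10.52 and 10.54 on Ti-TMS-PEI and 10.95, 10.85 and 11.04 on Ti-Ref. These groups did not overlap either, and MCM2 fell by 0.62 on the log2 scale (SE 0.15, 1.54-fold, limma adjusted p = 0.0294). Subunits MCM7 (-0.74, adjusted p = 0.0316) and MCM6 (-0.59, adjusted p = 0.0305) and ORC6 of the origin recognition complex (-0.70, adjusted p = 0.0372) were called as well.

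Not every subunit of the helicase passed the test. MCM4 had log2 signals of 13.53, 13.68, 13.94 and 14.08 on Ti-TMS-PEI and 14.03, 13.86 and 14.06 on Ti-Ref, so that arrays C and D of Ti-TMS-PEI lay within or above the Ti-Ref arrays. Its log2 fold change was -0.18 (limma adjusted p = 0.513). MCM3 had -0.27 (adjusted p = 0.151), although its Ti-TMS-PEI arrays (14.66, 14.69, 14.87 and 14.92) all lay below those of Ti-Ref (15.02, 15.06 and 15.07). Whether the subunits differ from each other was not tested. The loading factor CDC6 (-0.50, adjusted p = 0.0308) and the inhibitor GMNN (-0.56, adjusted p = 0.0467) passed the adjusted p but not the fold threshold. ORC1, the largest subunit of the origin recognition complex (-0.56, adjusted p = 0.0826), and the loading factor CDT1 (-0.56, adjusted p = 0.217) did not pass. CDT1 spread more than any other member on Ti-TMS-PEI, with 8.10, 7.58, 8.73 and 8.66, against 8.91, 8.81 and 8.76 on Ti-Ref.

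The firing genes, with which SKP2 was grouped, had the lowest median log2 fold change of the 8 roles (-0.89). Of these 8 genes, 6 were called lower, SKP2 among them. SKP2 is the substrate subunit of the ubiquitin ligase that degrades the CDK inhibitor p27 and is not part of the firing step described above. It had log2 signals of 12.59, 12.89, 13.07 and 13.18 on Ti-TMS-PEI and 13.83, 13.80 and 13.67 on Ti-Ref. The groups did not overlap, with a log2 fold change of -0.83 (SE 0.15, 1.78-fold lower, limma adjusted p = 0.010). MCM10, which links the helicase to the polymerases, had 6.78, 6.96, 7.42 and 7.42 on Ti-TMS-PEI and 8.22, 8.08 and 7.99 on Ti-Ref. It fell by 0.95 (SE 0.17, 1.93-fold, limma adjusted p = 0.0114). DBF4, the activator of CDC7, was the member with the lowest fold change and the only one more than 2-fold lower: its log2 signals were 8.59, 8.25, 8.71 and 9.40 on Ti-TMS-PEI and 10.14, 10.03 and 9.76 on Ti-Ref. Even its highest Ti-TMS-PEI array, D, lay below the lowest Ti-Ref array (log2 fold change -1.24, SE 0.24, 2.36-fold lower, limma adjusted p = 0.0151).

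The helicase partners of the firing step were also lower. CDC45 fell by 0.93 (1.91-fold, limma adjusted p = 0.0252), and the GINS subunits GINS2 and GINS1 fell by 0.89 and 0.88 (adjusted p = 0.0197 and 0.0208). CDC45 had log2 signals of 9.82, 10.31, 10.76 and 10.64 on Ti-TMS-PEI and 11.45, 11.25 and 11.25 on Ti-Ref, and the groups of GINS1 and GINS2 likewise did not overlap. The kinase CDC7 (-0.65, adjusted p = 0.0555) and GINS3 (-0.58, adjusted p = 0.126) missed the threshold.

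**Figure D2:**
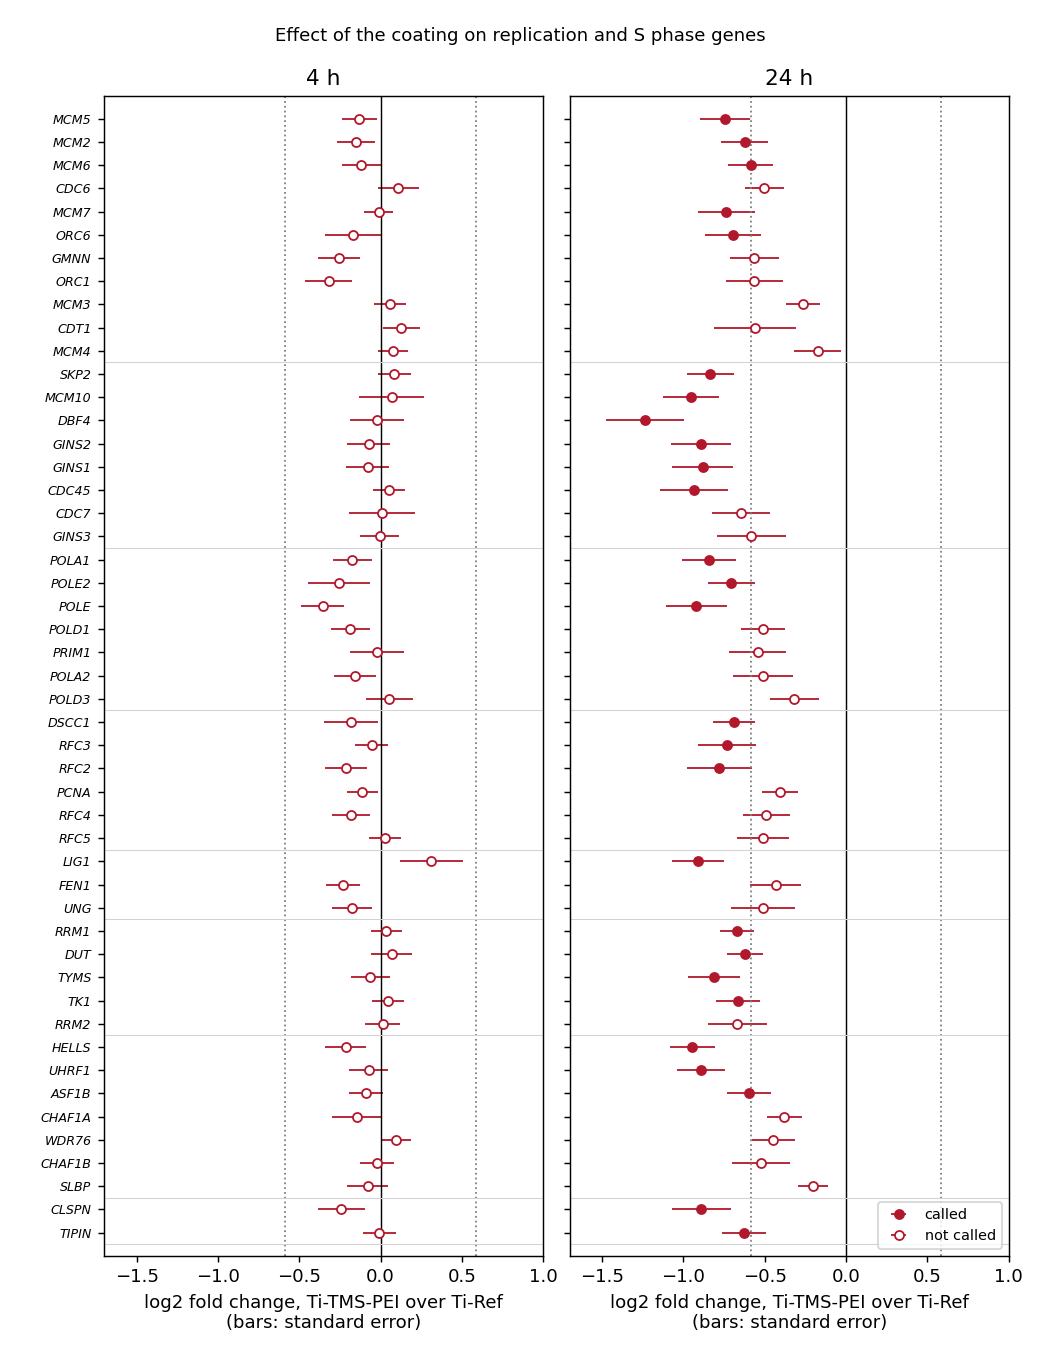
Log2 fold change of each member, Ti-TMS-PEI over Ti-Ref, with its standard error, at 4 h (left panel) and 24 h (right panel). Filled points were called, and dotted lines mark a 1.5-fold change in either direction. At 24 h all 49 points lie below 0 and 27 are filled, while at 4 h they lie on both sides of 0 and 0 are filled.

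Of the polymerases and primase, 3 of 7 were called lower (median log2 fold change -0.54). POLA1, the catalytic subunit of polymerase alpha, had log2 signals of 9.00, 8.94, 9.27 and 9.60 on Ti-TMS-PEI and 10.17, 10.09 and 9.88 on Ti-Ref. All arrays of Ti-TMS-PEI were lower, by 0.84 on average (SE 0.17, 1.79-fold, limma adjusted p = 0.0163). For POLE2, the second subunit of polymerase epsilon, the signals were 6.70, 6.58, 6.94 and 6.92 on Ti-TMS-PEI and 7.70, 7.23 and 7.54 on Ti-Ref, with -0.70 as the log2 fold change (SE 0.14, 1.63-fold lower, limma adjusted p = 0.0181). Its signals were near the median of the arrays. POLE, the catalytic subunit of the same enzyme, had 7.94, 8.23, 8.55 and 8.12 on Ti-TMS-PEI and 9.46, 9.17 and 8.76 on Ti-Ref. POLE was one of the few members whose Ti-Ref arrays spread more than those of Ti-TMS-PEI (SD 0.26 on Ti-TMS-PEI, against 0.35 on Ti-Ref), and it fell by 0.92 (SE 0.19, 1.89-fold, limma adjusted p = 0.0193). POLD1, the catalytic subunit of polymerase delta, passed the adjusted p only (-0.51, adjusted p = 0.0479). The accessory subunits POLA2 (-0.51) and POLD3 (-0.32) and the primase subunit PRIM1 (-0.54) did not pass (adjusted p from 0.0898 to 0.238).

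The clamp and clamp loader genes gave 3 calls among 6 members (median -0.60). DSCC1, a subunit of an alternative clamp loader that also acts in sister chromatid cohesion, had log2 signals of 9.14, 8.93, 9.26 and 9.29 on Ti-TMS-PEI and 9.87, 9.64 and 10.02 on Ti-Ref. The groups did not overlap (log2 fold change -0.69, SE 0.13, 1.61-fold lower, limma adjusted p = 0.0140). RFC3, a subunit of the clamp loader RFC, had 11.28, 11.72, 12.00 and 12.04 on Ti-TMS-PEI and 12.55, 12.52 and 12.40 on Ti-Ref, and fell by 0.73 (SE 0.18, 1.66-fold, limma adjusted p = 0.0356). RFC2 of the same complex was also called (-0.78, adjusted p = 0.0419), whereas RFC4 (-0.49) and RFC5 (-0.51) were not (adjusted p = 0.0682 and 0.0852). The clamp itself, PCNA, had 13.03, 13.12, 13.32 and 13.34 on Ti-TMS-PEI and 13.66, 13.62 and 13.55 on Ti-Ref. Although its groups did not overlap, its adjusted p of 0.0508 was just outside the threshold at a log2 fold change of -0.41.

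LIG1, the ligase that seals nicks between Okazaki fragments, had log2 signals of 7.73, 8.11, 8.35 and 8.41 on Ti-TMS-PEI and 9.00, 9.12 and 9.06 on Ti-Ref. The Ti-Ref arrays lay close together and well above, and LIG1 fell by 0.91 (SE 0.16, 1.88-fold, limma adjusted p = 0.0107). FEN1, the nuclease that removes the flaps of Okazaki fragments, had 12.41, 12.51, 13.00 and 12.91 on Ti-TMS-PEI and 13.20, 13.15 and 13.07 on Ti-Ref (log2 fold change -0.43, SE 0.16, limma adjusted p = 0.124). It was not called, and neither was UNG, which removes uracil from DNA (-0.51, adjusted p = 0.150). Both had all Ti-TMS-PEI arrays below the Ti-Ref arrays.

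Genes of nucleotide supply were called in 4 of 5 cases (median -0.67). RRM1, the large subunit of ribonucleotide reductase, had log2 signals of 12.72, 12.88, 12.94 and 13.04 on Ti-TMS-PEI and 13.54, 13.58 and 13.58 on Ti-Ref. The gap between the surfaces was wider than the whole range within either, and RRM1 fell by 0.67 (SE 0.10, 1.59-fold, limma adjusted p = 0.00627). DUT, which hydrolyses dUTP and thereby provides the precursor of thymidylate, had 12.64, 12.48, 12.65 and 12.82 on Ti-TMS-PEI and 13.35, 13.16 and 13.29 on Ti-Ref (log2 fold change -0.62, SE 0.11, 1.54-fold lower, limma adjusted p = 0.0108). Thymidylate synthase TYMS (-0.81, adjusted p = 0.0162) and thymidine kinase TK1 (-0.66, adjusted p = 0.0177) were lower as well. RRM2, the small subunit of ribonucleotide reductase, changed by -0.67 on average, as much as RRM1, but its arrays spread more (12.36, 12.43, 13.05 and 12.86 on Ti-TMS-PEI, and 13.50, 13.40 and 13.13 on Ti-Ref), and its adjusted p was 0.0544.

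Among the genes of chromatin assembly and inheritance, 3 of 7 were called lower (median -0.52). HELLS, a chromatin remodeller needed to maintain DNA methylation, had the smallest adjusted p of all members. Its log2 signals were 10.37, 10.43, 10.70 and 10.84 on Ti-TMS-PEI and 11.62, 11.61 and 11.36 on Ti-Ref, with -0.94 as the log2 fold change (SE 0.14, 1.93-fold lower, limma adjusted p = 0.00543). UHRF1, which binds hemimethylated DNA behind the fork and recruits the maintenance methyltransferase, had 10.35, 10.77, 10.97 and 10.57 on Ti-TMS-PEI and 11.51, 11.61 and 11.55 on Ti-Ref. It fell by 0.89 (SE 0.15, 1.85-fold, limma adjusted p = 0.00783). The histone chaperone ASF1B was called at -0.60 (adjusted p = 0.0255). The subunits CHAF1A (-0.38) and CHAF1B (-0.52) of chromatin assembly factor 1 and WDR76 (-0.45), a WD repeat protein, did not pass (adjusted p from 0.0632 to 0.109).

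SLBP, which binds the stem-loop of replication-dependent histone mRNAs, differed from the other members in its spread. Its log2 signals were 11.75, 11.76, 11.78 and 11.77 on Ti-TMS-PEI and 11.98, 11.87 and 12.05 on Ti-Ref, so the 4 Ti-TMS-PEI arrays were nearly equal. They all lay below the Ti-Ref arrays, but the log2 fold change was only -0.20 (limma adjusted p = 0.215).

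Both fork protection genes were called lower. CLSPN, the adaptor through which the kinase ATR activates CHEK1, had log2 signals of 9.58, 9.94, 10.36 and 10.27 on Ti-TMS-PEI and 10.85, 10.93 and 11.00 on Ti-Ref, and fell by 0.89 (SE 0.18, 1.85-fold, limma adjusted p = 0.0179). TIPIN, the partner of TIMELESS at the fork, had 9.55, 9.57, 10.03 and 9.90 on Ti-TMS-PEI and 10.36, 10.42 and 10.39 on Ti-Ref, and fell by 0.63 (SE 0.14, 1.54-fold, limma adjusted p = 0.0231). In both genes arrays A and B of Ti-TMS-PEI were the lowest.

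**Figure D3:**
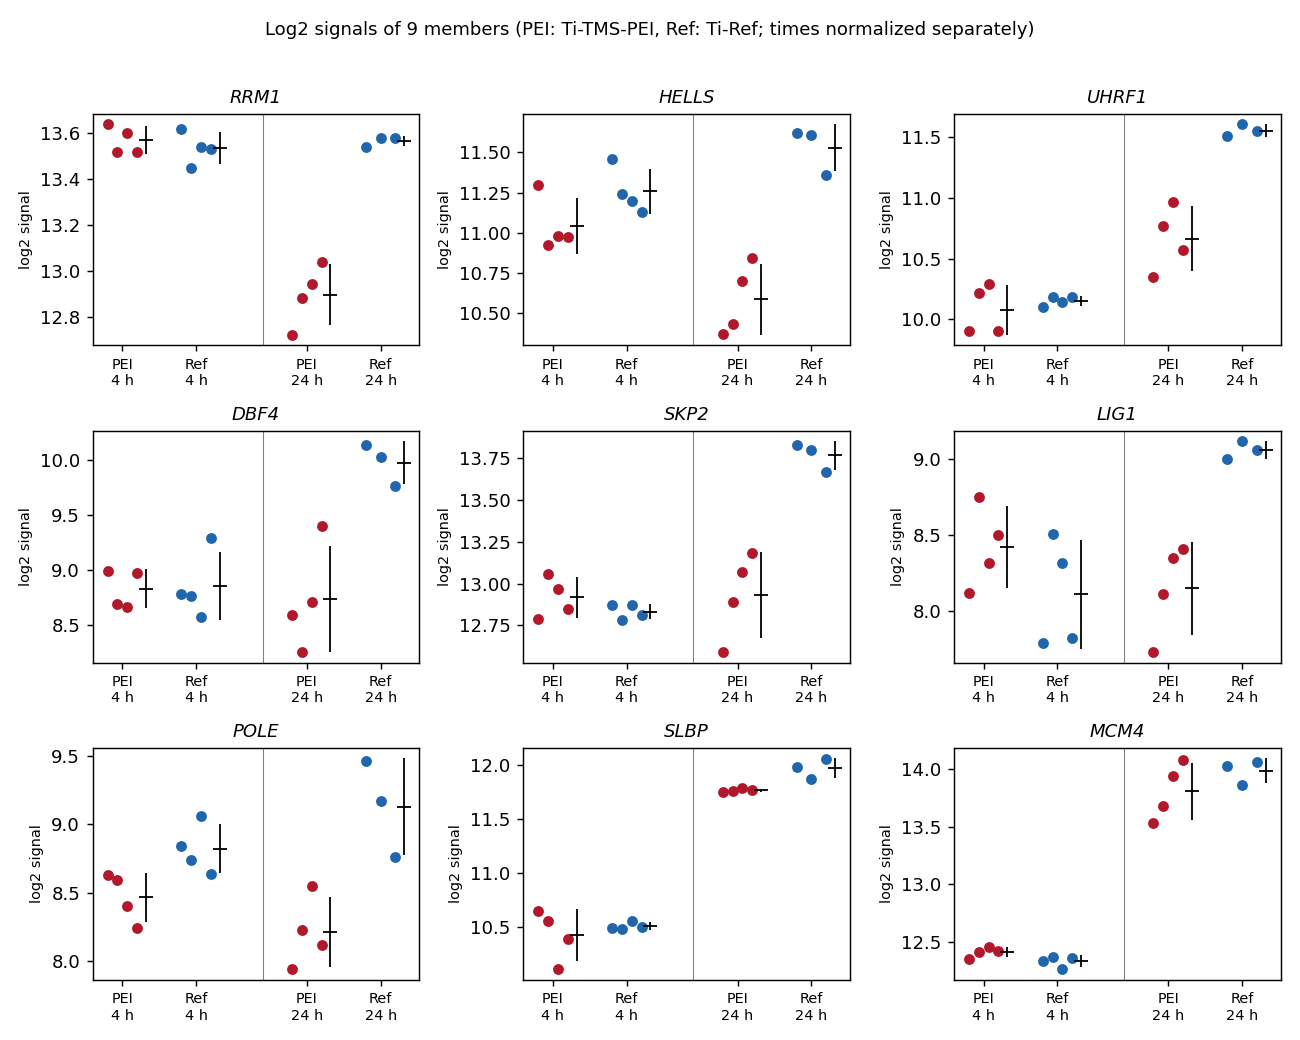
Log2 signals of 9 members in each array (points), with the mean and SD beside each group, for Ti-TMS-PEI (red) and Ti-Ref (blue) at 4 h and 24 h. The times were taken as normalized separately, from their array medians, and are not compared in level. RRM1 at 24 h lies between 12.72 and 13.04 on Ti-TMS-PEI and between 13.54 and 13.58 on Ti-Ref, whereas the groups of MCM4 overlap and the 4 Ti-TMS-PEI points of SLBP nearly coincide.

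The arrays of Ti-TMS-PEI at 24 h were not equally low. Averaged over the 49 members, arrays A, B, C and D of Ti-TMS-PEI lay at -0.93, -0.79, -0.43 and -0.44 relative to the Ti-Ref mean, and arrays A, B and C of Ti-Ref at 0.06, -0.04 and -0.01. Arrays A and B were thus further from Ti-Ref than C and D, and even the nearer pair lay below all Ti-Ref arrays. For 45 of the 49 members (91.8%), both A and B were below both C and D, where 17.7% of all transcript clusters had this order. Array A was the lowest of the 7 arrays for 40 members and B for 9, while over all transcript clusters A was lowest in 18.0% and B in 14.0%. This order was seen in the data and not set by the design, and what else differs between these arrays was not tested.

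The spread between replicates followed the same split. The median SD of the members was 0.27 on Ti-TMS-PEI, against 0.095 on Ti-Ref at 24 h, and 0.17 against 0.15 over all transcript clusters. The SD was larger on Ti-TMS-PEI for 43 members (87.8%), where it was larger for 56.3% of all transcript clusters. At 4 h the median SD of the members was 0.16 on Ti-TMS-PEI, against 0.14 on Ti-Ref. Origin firing genes, with SKP2 counted among them, followed the split at 24 h. Their means were -1.28, -1.02, -0.64 and -0.54 on Ti-TMS-PEI A to D and 0.09, -0.01 and -0.08 on Ti-Ref A to C.

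**Figure D4:**
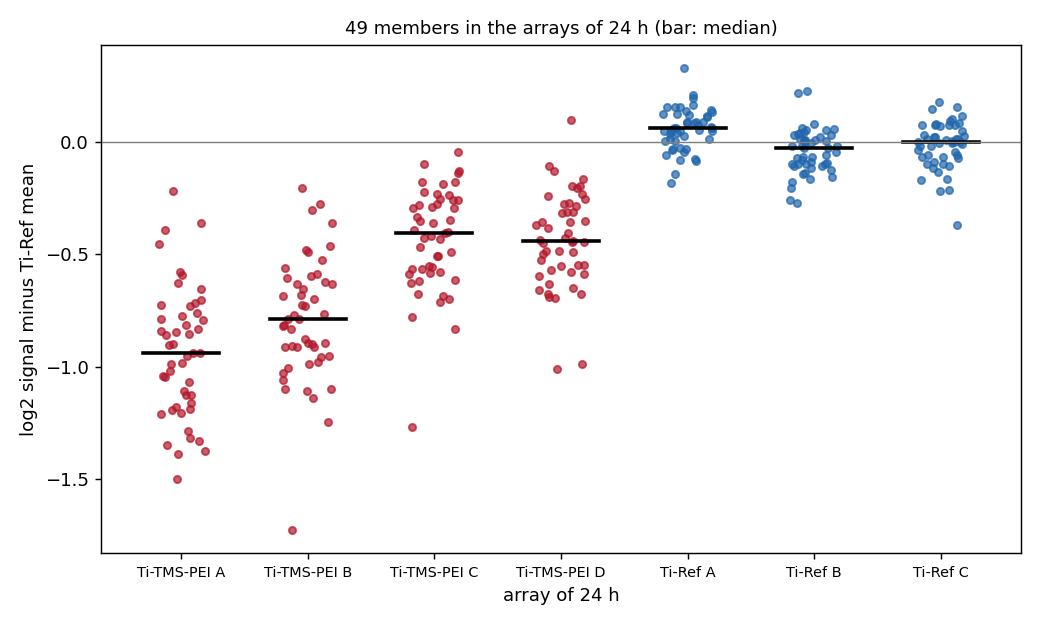
Log2 signal of the 49 members (points) in each array of 24 h, as the difference from the Ti-Ref mean of the gene, with the median of the array as a bar. The medians are -0.94 and -0.79 in Ti-TMS-PEI A and B and -0.41 and -0.44 in C and D, and they lie within 0.06 of 0 in the 3 Ti-Ref arrays.

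After 4 h the arrays of both surfaces overlapped for nearly all members. In limma 0 of 49 were called (9 of all transcript clusters, 0.042%), and 1 (2.04%) had an unadjusted p under 0.05, against 2029 of all transcript clusters (9.46%). The mean was lower on Ti-TMS-PEI for 33 of the 49 members and for 11022 of the 21448 transcript clusters. The median log2 fold change of the members was -0.07 (-0.0075 over all transcript clusters), and members ranged from -0.36 for POLE to 0.31 for LIG1. All Ti-TMS-PEI arrays lay below all Ti-Ref arrays for 2 members, POLE and FEN1, which held for 2.79% of all transcript clusters. POLE had log2 signals of 8.63, 8.59, 8.40 and 8.24 on Ti-TMS-PEI and 8.84, 8.74, 9.06 and 8.64 on Ti-Ref (SE of the difference 0.13, unadjusted p = 0.0232, limma adjusted p = 0.442). The 4 Ti-TMS-PEI arrays of FEN1 (12.38, 12.41, 12.38 and 12.40) were nearly equal, while its Ti-Ref arrays (12.72, 12.74, 12.60 and 12.43) varied more, and its log2 fold change was -0.23 (SE 0.10, limma adjusted p = 0.530).

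LIG1 was the member with the highest log2 fold change at 4 h, with signals of 8.12, 8.75, 8.32 and 8.50 on Ti-TMS-PEI and 7.79, 8.51, 8.32 and 7.82 on Ti-Ref. These groups overlapped, and the difference of 0.31 did not pass (SE 0.20, limma adjusted p = 0.646). By array, the mean of the members relative to the Ti-Ref mean lay between -0.11 and -0.02 on Ti-TMS-PEI and between -0.05 and 0.05 on Ti-Ref.

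An interaction term in a limma fit of the 15 arrays asked if the coating acted differently after 24 h than after 4 h. The difference (log2 fold change at 24 h minus that at 4 h) was below 0 for all 49 members, with a median of -0.57, and 13 passed an adjusted p under 0.05 with a difference over 1.5-fold (469 of all transcript clusters passed in this direction, 2.19%). It was -1.22 for LIG1 (SE 0.27, limma adjusted p = 0.0169), -1.22 for DBF4 (SE 0.30, adjusted p = 0.0297), -0.92 for SKP2 (SE 0.17, adjusted p = 0.00631) and -0.71 for RRM1 (SE 0.13, adjusted p = 0.00553). All of nucleotide supply but RRM2 passed, as did MCM10, CDC45, MCM7, UHRF1, HELLS and TIPIN. Of the 27 members called at 24 h, 14 thus did not pass the test of a difference from 4 h. Among them was POLE, whose difference was -0.56 (adjusted p = 0.201), with lower arrays on Ti-TMS-PEI at both times. The count of 13 was between 5 (without Ti-Ref A of 24 h) and 20 (without Ti-TMS-PEI D of 24 h) when single arrays were left out.

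Other genes of the same processes were examined beside the members at 24 h. They too were listed from pathway knowledge with earlier results of these data known. Over all transcript clusters, 2.69% were called lower and 3.46% higher. Whether any list with 1 call exceeds these shares was not tested. Of 33 further replisome and origin genes, 1 was called higher, near the share of all, and 7 were called lower (median log2 fold change -0.40). Examples are RPA3, the small subunit of the single-strand binding protein RPA (-0.70, limma adjusted p = 0.00919), RNASEH2A, the catalytic subunit of RNase H2 (-0.65, adjusted p = 0.00999), and GINS4, which completes the GINS complex (-0.99, adjusted p = 0.0161). The gene called higher was POLD4, the smallest subunit of polymerase delta, which averaged 9.80 ± 0.13 on Ti-TMS-PEI, against 9.05 ± 0.05 on Ti-Ref (SD, n = 4 and 3). Its log2 fold change was 0.74 (SE 0.10, limma adjusted p = 0.00432), opposite in sign to that of POLD1 and POLD3. POLD1 and POLD3 were not called, and POLD2, another subunit, had -0.01 (limma adjusted p = 0.965). Of 17 further genes of nucleotide supply, 1 was called lower, the mitochondrial folate enzyme MTHFD2 (-0.67, adjusted p = 0.00585), at a median of -0.35 for the list.

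The histone methyltransferase EZH2 (-0.92, limma adjusted p = 0.00435) was the only one of 10 further chromatin inheritance genes called, and the checkpoint clamp subunit RAD1 (-0.60, adjusted p = 0.0296) the only one of 9 checkpoint genes. The medians of these lists were -0.33 and -0.34. Of 20 genes of E2F factors, RB proteins and S phase cyclins, 4 were called lower (median -0.33), among them cyclin A2 (CCNA2, -1.11, adjusted p = 0.00383), the repressor E2F8 (-0.81, adjusted p = 0.0146) and the activator MYBL2 (-0.92, adjusted p = 0.0167). At 4 h, 0 genes of these lists were called by limma, and 8 of the 89 (8.99%) had an unadjusted p under 0.05, close to the 9.46% of all transcript clusters.

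Genes of G2 and M phase, whose RNA peaks after that of the replication genes, were lower at 24 h too. Of 30 listed, 27 were called lower with a median log2 fold change of -0.95, for example the kinase NEK2 (-1.17, limma adjusted p = 0.00225) and the kinetochore proteins CENPF (-0.99, adjusted p = 0.00270) and CENPE (-1.20, adjusted p = 0.00282). Over this list, arrays A, B, C and D of Ti-TMS-PEI lay at -1.21, -1.08, -0.72 and -0.64 relative to the Ti-Ref mean, so A and B were again the lowest. The 2 lists share no gene and differ in the words of their promoters. Windows were held for 25 of the 30 G2 and M phase genes, and some of these have several. E2F words were found in 13.3% of the 30 windows of the G2 and M phase genes and in 42.6% of the 61 windows of the replication genes. The word TTTGAA (the core of the CHR element, searched on both strands) was found in 70% and 8.2% of these windows, against 15.2% of all windows, and CCAAT in 76.7% and 54.1%, against 34.6% of all windows. Whether the log2 fold changes of the lists differ was not tested.

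**Figure D5:**
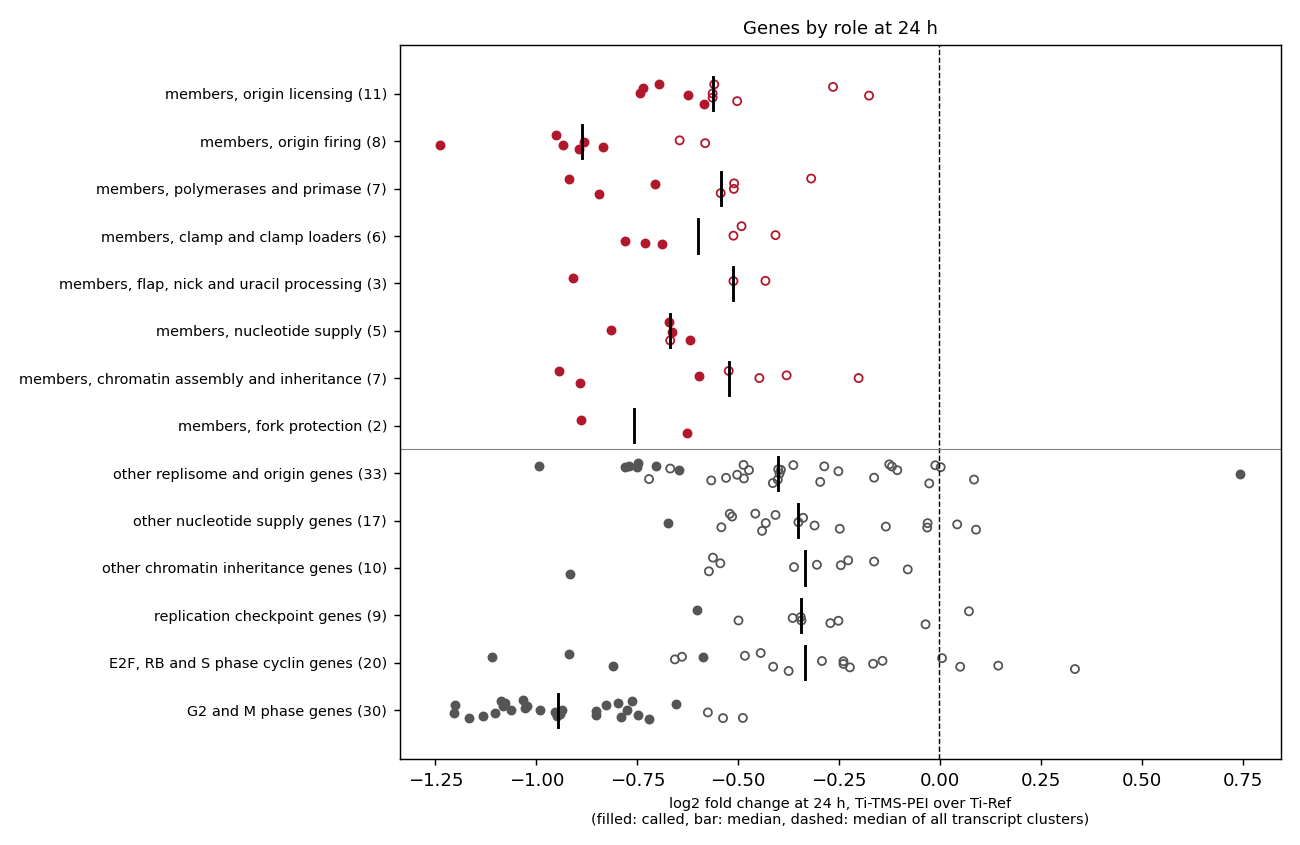
Log2 fold change at 24 h, Ti-TMS-PEI over Ti-Ref, of the members by role (red) and of the other listed genes (grey), with the number of genes in parentheses, the median of each group as a bar and called genes filled. Medians run from -0.51 to -0.89 over the roles of the members, from -0.33 to -0.40 over the other replication lists, and -0.95 for G2 and M phase, while the median of all transcript clusters (dashed) is close to 0.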

How the data were processed

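RNA of adherent MG-63 cells was hybridised to Clariom S arrays, 1 per sample (15 in all). The authors processed the scans in the Transcriptome Analysis Console by SST-RMA (background adjustment, quantile normalization and log2 transformation) and deposited log2 signals per transcript cluster. They left out 1 further Ti-Ref array of 24 h because of its labelling controls. Deposited values were used unchanged and without a filter on dim signals. In R 4.3.3, limma 3.58.1 was fitted within each time over 21448 transcript clusters with the surface as the only term, and with an interaction term for all arrays together, with Benjamini-Hochberg adjustment. The code was tested on simulated data. Members and lists were chosen with earlier results of these data known. Full statistics are given for the 2 members of each role with the smallest p at 24 h and the 2 with the smallest p at 4 h. From the other lists, up to 3 called genes per direction with the smallest p are named, and POLD2 beside POLD4. DBF4, MCM4, PCNA, SLBP and others shown by array were picked after their values were seen. Of the 160 genes of the other lists, 152 were measured and 8 were not analysed here. Arrays give no read counts, and precision rests on how many there are. Alternatives were a replicate block, another spread, variance prior, array weights, dim filter, scaling and thresholds, and leaving out each array. Arrays of the same letter on both surfaces were not alike (correlations of deviations from the group means from -0.07 to 0.05), so letters were not used as pairs. Promoter sequences are from RefSeq. Figures were drawn with matplotlib 3.10.9.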

Additional observations from a re-analysis of the deposited data

Results flagged for a closer look

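For 13 members the coating effect at 24 h differed from that at 4 h in the limma interaction test, always downwards. On the log2 scale, the effect at 24 h minus that at 4 h was -1.22 for LIG1, -1.22 for DBF4, -1.02 for MCM10, -0.98 for CDC45, -0.92 for SKP2, -0.82 for UHRF1, -0.75 for TYMS, -0.73 for HELLS, -0.72 for MCM7, -0.71 for RRM1, -0.71 for TK1, -0.69 for DUT and -0.62 for TIPIN. In LIG1 part of this difference comes from a mean that was higher on Ti-TMS-PEI at 4 h (0.31), which was not called.

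In 7 of 147 groups of 4 arrays examined for the members, 1 array stood apart from the other 3 by a gap that made up most of the range of the group. Chance alone gives about 1 in 20 such groups. All 7 were groups of 4 h. At 24 h only Ti-TMS-PEI was examined, since Ti-Ref had 3 arrays. There A and B lay below C and D for 45 of the 49 members, and a split into pairs leaves no single array apart. The count of 7 therefore does not compare the times. On Ti-TMS-PEI, array C was highest for MCM6 (0.914 of the range) and lowest for PCNA (0.867), array D was lowest for UNG (0.833) and array A was highest for HELLS (0.842). On Ti-Ref, array C was lowest for POLD3 (0.906), array A was highest for CHAF1B (0.895) and lowest for TIPIN (0.929).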

How the results depend on the processing

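All 49 members kept a lower mean at 24 h in all 15 fits, and their median log2 fold change stayed between -0.71 and -0.56. SKP2, LIG1, UHRF1, RRM1 and HELLS were called lower in all 15 fits, and 18 members in none. The count of 27 members called lower was 16 with a replicate block, 1 at a fold change over 2 and 3 at an adjusted p under 0.01, and from 27 to 30 under the other settings over all arrays. With the block, calls lower over all transcript clusters went from 577 to 389. Ti-TMS-PEI D of 24 h has no Ti-Ref array of its letter, so under the block it adds nothing to the coating effect. Leaving out single arrays gave from 5 (without Ti-Ref A) to 30 (without Ti-TMS-PEI D), with 10 without Ti-Ref B, 11 without Ti-Ref C and 10 without Ti-TMS-PEI B. In these fits, calls lower over all transcript clusters ran from 305 (without Ti-Ref A) to 639 (without Ti-TMS-PEI D). The count of 13 members past the interaction test was 6 with a replicate block, 20 with a trended and robust variance, 22 with arrays centred on their medians, 3 over 2-fold and 2 at an adjusted p under 0.01. It was from 5 to 20 when single arrays were left out: at 24 h 5, 7 and 8 without Ti-Ref A, B and C, 6 without Ti-TMS-PEI A or B and 20 without D, and at 4 h 7 and 8 without Ti-TMS-PEI A and B and 8 without Ti-Ref B or C. The cause of these shifts was not tested, and leaving out an array also leaves fewer samples. The interaction test shares its spread over all arrays by construction, so that alternative gave no value of its own. At 4 h 0 members were called by limma in any setting, and the median stayed between -0.08 and -0.04. Of the 238 alternative values of the members given with full statistics, 198 kept their side of the threshold, 40 kept the direction only and 0 reversed. Centring on medians moved the median of all transcript clusters at 24 h to -0.06 and the share of higher among all calls from 56.3% to 43.5%, but no direction of a member. Replicate letters were not used as pairs in the main fit, and whether arrays of the same letter share an experiment is not known.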
